A study of Mus musculus with 18 samples.

Results

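Epididymal fat of mice kept on a high-fat diet was compared with the same depot of mice kept on a normal diet. The comparison used 3 arrays of each diet, 6 of the 18 arrays of the series, and was described across the 10240 genes detected in fat. All mice were male C57BL/6J, spelled C56BL/6J in the strain label, individually housed, 4 weeks old at arrival and given AIN-76 diet for 1 week before the study diets. The normal diet (ND) group had 10 mice and the high-fat diet (HFD) group 13, and each diet was eaten for 16 weeks. The HFD held 20% fat and 1% cholesterol, so dietary fat and cholesterol cannot be told apart here. The 3 arrays of mice given the HFD with 0.005% luteolin (LU) were not compared here. They shared the normalization, the detection filter, the choice of probe per gene and the fit's estimate of the spread. Whether each array had its own mouse is not stated in the labels, so the p-values speak of the spread among these arrays, which may be technical.

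Epididymal fat is the large abdominal depot of male mice. Its adipocytes store triglyceride, release fatty acids on adrenergic stimulation and take up glucose under insulin, and they share the tissue with macrophages, fibroblasts, endothelium and a mesothelial covering. In obesity this depot is known to gain macrophages that surround dying adipocytes, digest lipid in their lysosomes and express Trem2, while collagen is laid down around the fat cells. Bulk RNA shows the sum of all these cells: fewer cells of a type and less RNA per cell cannot be told apart.

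The diets separated the arrays. The first principal component of the 6 arrays held 79.4% of the variance and placed the ND arrays at -22.5, -30.14 and -25.46 and the HFD arrays at 28.06, 29.08 and 20.96. Between 19113 and 19852 of 45281 probes were detected per array. Precision is limited by the 3 arrays per diet. The defining adipocyte genes for leptin, adiponectin and perilipin 1 were detected on all 6 arrays.

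Of the 10240 genes, 4653 (45.4%) passed an adjusted p of 0.05 in limma's moderated test with Benjamini-Hochberg adjustment, which is the test behind every adjusted p here. Among them 2206 (21.5%) were higher and 2447 (23.9%) were lower on the HFD. The large changes were mostly rises. Past a 2-fold difference 436 genes were higher (4.26%) and 123 lower (1.20%), past 4-fold 90 were higher and 9 lower, and past 8-fold 17 were higher and 1 lower. In 5430 genes (53.0%) the 3 HFD arrays did not overlap the 3 ND arrays, with the HFD arrays above in 24.6% and below in 28.4% of all genes. The median difference over all genes was -0.03 on the log2 scale. Below, a level is a normalized log2 signal on 1 array, a difference is HFD minus ND on the log2 scale with its standard error (SE, n = 3 arrays per diet), and a fold is its linear ratio.

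**Figure D1:**
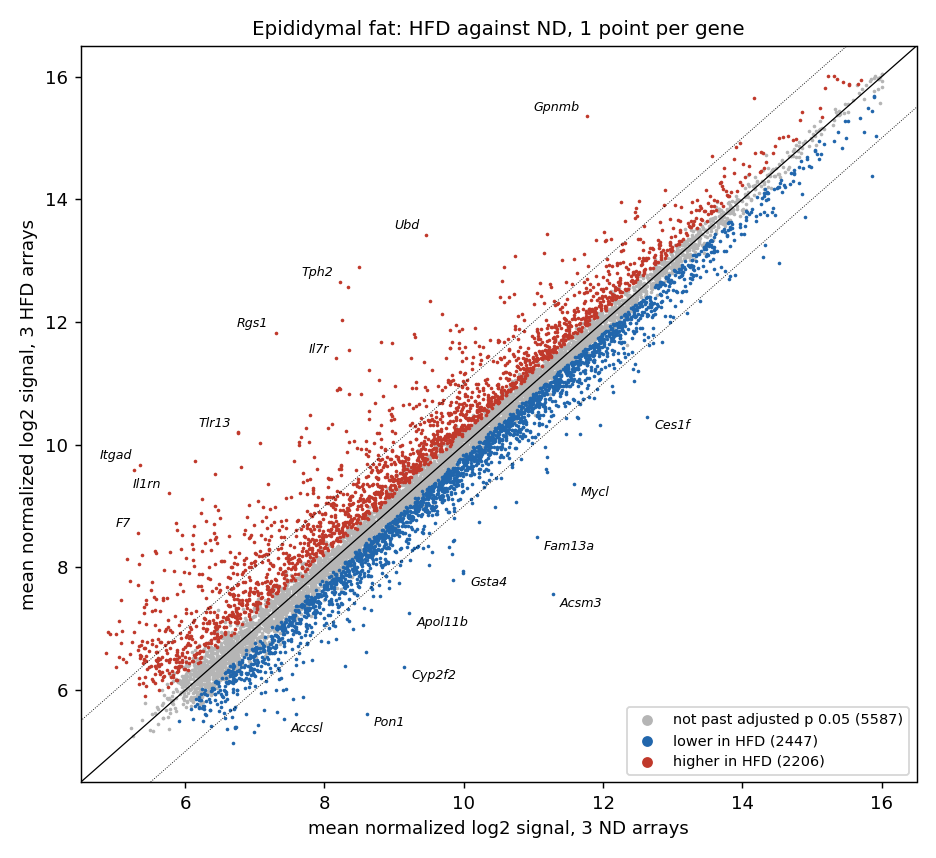
Mean normalized log2 signal of each of the 10240 genes on the 3 ND arrays (horizontal axis) and on the 3 HFD arrays (vertical axis). Red points passed the adjusted p of 0.05 as higher on the HFD, blue as lower and grey did not pass, the solid line marks equal signal, the dotted lines mark 2-fold, and some of the genes with the largest changes are labelled. More red points than blue points lie outside the dotted lines, 436 against 123.

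The largest rises included genes of macrophages and other leukocytes. Rgs1, a regulator of G protein signalling that dampens chemokine receptors in leukocytes, was measured at 7.09, 7.55 and 7.26 on the ND arrays and 12.03, 11.92 and 11.53 on the HFD arrays. The groups were far apart, with a difference of 4.53 ± 0.15, a 23.0-fold rise (adjusted p = 5.29e-07). Tph2, the tryptophan hydroxylase known for serotonin synthesis in neurons, read 8.63, 6.94 and 9.11 on the ND arrays and 12.59, 13.11 and 12.28 on the HFD arrays. Its ND arrays were spread more widely than those of most genes, yet all lay below the HFD arrays, and the difference was 4.43 ± 0.46 (adjusted p = 6.93e-05). Ubd, which encodes the ubiquitin-like modifier FAT10, rose 15.6-fold, with levels of 9.75, 8.92 and 9.73 on the ND arrays and 13.45, 13.62 and 13.20 on the HFD arrays. Saa3, the serum amyloid A made outside the liver, rose 13.7-fold, with levels of 8.31, 8.15 and 8.29 on the ND arrays and 11.94, 12.35 and 11.80 on the HFD arrays. For both genes every HFD array stood well above every ND array.

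Several of the largest rises began below the detection level of the array. Itgad, the alpha D chain of a leukocyte integrin, was undetected on all 3 ND arrays and detected on all 3 HFD arrays, where its level was at least 12.2-fold higher (adjusted p = 6.23e-07). The immunoglobulin-domain gene Vsig8 was at least 11.5-fold higher (adjusted p = 7.48e-07) and F7, coagulation factor VII, at least 5.69-fold higher (adjusted p = 7.48e-07), each from undetected on all ND arrays. Such a bound sets the HFD mean over its 3 arrays against ND values raised to the detection level of their array. Il1rn, the interleukin 1 receptor antagonist, was likewise at least 8.87-fold higher (adjusted p = 1.23e-06), and its other probe differed by 1.44. Tlr13, a receptor for bacterial ribosomal RNA, rose 10.9-fold (difference 3.45 ± 0.19, adjusted p = 1.83e-06). Slc37a2, a sugar-phosphate exchanger abundant in macrophages, rose 10.7-fold (difference 3.43 ± 0.16, adjusted p = 8.47e-07). Il7r, the interleukin 7 receptor, rose 9.49-fold on its main probe (difference 3.25 ± 0.15), while its other probes differed by 2.49 and 1.11. The remaining large rises were Mmp12, Trem2 and Gpnmb, taken up with the macrophage genes, and Pvalb, taken up with the muscle markers.

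The largest falls included enzymes of lipid and xenobiotic metabolism. Acsm3, a medium-chain acyl-CoA synthetase of mitochondria, was measured at 11.07, 11.94 and 10.82 on the ND arrays and 7.55, 7.33 and 7.81 on the HFD arrays. Its 13.1-fold fall (difference -3.71 ± 0.26, adjusted p = 6.73e-06) was past 8-fold, and its other probes differed by -1.66 and -4.06. Pon1, a paraoxonase carried on high-density lipoprotein, was detected on all ND arrays and undetected on all HFD arrays, at least 5.96-fold lower (adjusted p = 1.2e-05). Cyp2f2, a cytochrome P450, read 9.50, 9.21 and 8.72 on the ND arrays and 6.47, 6.34 and 6.35 on the HFD arrays, a 6.77-fold fall (adjusted p = 2.53e-06). Fam13a, a gene whose human counterpart is linked to body fat distribution, read 10.57, 11.62 and 10.95 on the ND arrays and 8.35, 8.30 and 8.84 on the HFD arrays, a 5.85-fold fall (adjusted p = 3.76e-05). The groups did not overlap for any of these genes, as the rule for picking them required.

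The other large falls included transcription factors and detoxifying enzymes. Mycl, a transcription factor of the Myc family, fell 4.64-fold (difference -2.21 ± 0.30, adjusted p = 0.000344). Irf4, an interferon regulatory factor induced in fasted adipocytes and also used by lymphocytes and macrophages, fell 4.12-fold (difference -2.04 ± 0.43, adjusted p = 0.004). Gsta4, the glutathione transferase that clears the lipid peroxidation product 4-hydroxynonenal, read 10.03, 10.03 and 9.90 on the ND arrays and 7.96, 7.79 and 7.98 on the HFD arrays, a 4.22-fold fall (adjusted p = 8.47e-07). Ces1f, a carboxylesterase, fell 4.50-fold (difference -2.17 ± 0.18, adjusted p = 1.57e-05). Flvcr2, a transporter of the major facilitator family, fell 3.72-fold and Eci3, an enoyl-CoA isomerase, 3.24-fold (adjusted p = 1.4e-05 and 1.63e-06). Apol11b, of the apolipoprotein L family, fell 3.89-fold (adjusted p = 0.00222). Ripk4, a kinase of the receptor-interacting family, fell 3.92-fold (adjusted p = 0.000302), was detected on 2 of 3 HFD arrays, and differed by -1.26 on its other probe. Rnase2a, of the eosinophil-associated ribonucleases, was at least 2.94-fold lower and Accsl at least 2.61-fold lower (adjusted p = 7.02e-06 and 0.000155), both undetected on all HFD arrays. The last of the 15, Slc4a1, is an erythrocyte gene and is described with the blood markers.

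**Figure D2:**
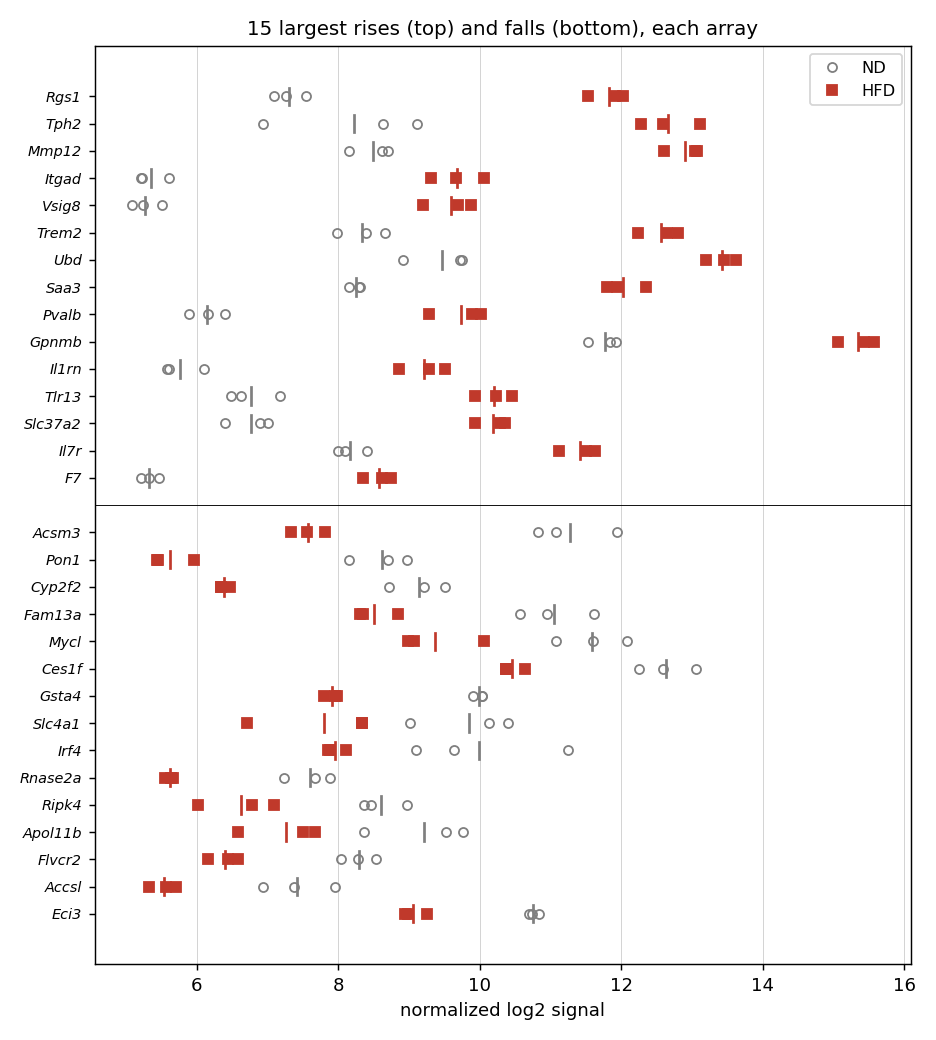
Normalized log2 signal of the 15 genes with the largest rises (top) and the 15 with the largest falls (bottom) on each of the 3 ND arrays (open grey circles) and 3 HFD arrays (filled red squares), with short bars at the group means. Rgs1 lies near 7.30 on the ND diet and 11.82 on the HFD, and Acsm3 shows the reverse order. No gene has overlapping groups, because only genes without overlap were picked.

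Genes of lipid-associated macrophages, the Trem2-expressing cells of obese fat, formed the list with the highest median. Of its 15 members tested (of 17 in the list), 13 rose, 1 fell and 1 did not pass. The median difference was 1.48, against -0.03 for all genes, and 9 members were past 2-fold. The summed linear signal of the tested members was 112500 to 114400 on the ND arrays and 207500 to 241700 on the HFD arrays, without overlap. The member that did not pass was Lpl, lipoprotein lipase, which is also in the list of adipocyte identity genes. Its mean level was 16.01 on the ND and 16.04 on the HFD (adjusted p = 0.603), at the top of the scale. Lpl gave most of the ND sum, so that sum is not a measure of macrophage signal alone. The member that fell was Acp5, tartrate-resistant acid phosphatase, which fell (difference -0.31 ± 0.07, adjusted p = 0.00827). Spp1 (osteopontin) and Atp6v0d2 had no named probe and were not analysed here.

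Upstream sequence is given for the genes with the largest rise in this list, because PU.1, the transcription factor that sets the macrophage program, binds GAGGAAGT and its reverse complement. Each window runs from 250 bases before to 50 bases after the start listed by RefSeq (GRCm38.p6), 5′ to 3′ on the gene's strand, with any GAGGAAGT match in capitals. That of Mmp12 (chr9:7344147-7344446, plus strand, the first of 2 listed starts) holds ACTTCCTC, the motif on the opposite strand, beginning at -88 relative to the start, and that of Trem2 (chr17:48346151-48346450, plus strand) holds none.
Mmp12: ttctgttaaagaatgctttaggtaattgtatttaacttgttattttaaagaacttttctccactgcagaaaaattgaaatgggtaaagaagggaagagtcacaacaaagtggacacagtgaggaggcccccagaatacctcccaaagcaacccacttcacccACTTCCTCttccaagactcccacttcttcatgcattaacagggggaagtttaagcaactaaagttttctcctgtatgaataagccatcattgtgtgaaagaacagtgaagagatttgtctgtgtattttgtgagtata
Trem2: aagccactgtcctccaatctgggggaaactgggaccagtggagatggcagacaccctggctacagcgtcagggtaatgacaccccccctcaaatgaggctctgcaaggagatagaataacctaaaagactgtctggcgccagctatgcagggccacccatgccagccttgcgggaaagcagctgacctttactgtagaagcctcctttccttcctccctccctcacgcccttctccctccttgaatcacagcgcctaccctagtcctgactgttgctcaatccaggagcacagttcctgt
At any listed start, the motif was found in 1 of 11 list members with a promoter sequence (9.09%), in 3 of 14 general macrophage markers (21.4%) and in 305 of 8284 tested genes (3.68%). A match is a run of letters, not a measured binding site.

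Mmp12, macrophage elastase, was measured at 8.62, 8.14 and 8.71 on the ND arrays and 13.07, 13.04 and 12.60 on the HFD arrays. The HFD arrays lay far above every ND array, a 21.3-fold rise (difference 4.42 ± 0.17, adjusted p = 6.23e-07). Trem2, the lipid receptor that marks these cells, read 8.66, 8.39 and 7.97 on the ND arrays and 12.80, 12.65 and 12.24 on the HFD arrays, an 18.7-fold rise (difference 4.23 ± 0.19, adjusted p = 8.15e-07). Gpnmb, a membrane glycoprotein of lysosome-rich phagocytes, was already well expressed on the ND. It read 11.84, 11.93 and 11.53 on the ND arrays and 15.57, 15.43 and 15.06 on the HFD arrays. That was a 12.0-fold rise on its main probe (difference 3.59 ± 0.15, adjusted p = 6.96e-07), and its other probes differed by 4.58, 4.12 and 3.26. The HFD level of Gpnmb was close to the top of the scale, 16.06. Ctsk, the collagen-cutting cathepsin K, rose 4.98-fold (difference 2.32 ± 0.12, adjusted p = 1.23e-06). Itgax, the CD11c integrin chain used to sort fat macrophages of obese mice, was undetected on all 3 ND arrays and at least 3.16-fold higher on the HFD (adjusted p = 2.99e-06).

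Markers carried by macrophages in general rose as well. Among 20 tested of 22, 17 rose, 0 fell and 3 did not pass, with a median difference of 1.05. Their summed signal was 45330 to 53380 on the ND arrays and 101000 to 111800 on the HFD arrays, again without overlap. Adgre1, which encodes the F4/80 antigen, was measured at 10.65, 10.62 and 10.67 on the ND arrays and 12.56, 12.45 and 12.19 on the HFD arrays, a 3.37-fold rise (adjusted p = 2.05e-06). Ctss, the cathepsin that trims the invariant chain of MHC class II, rose 4.92-fold (difference 2.30 ± 0.16, adjusted p = 6.36e-06). Ms4a7 rose 4.17-fold, the pore-forming Mpeg1 3.90-fold and the adaptor Tyrobp, which carries the signal of Trem2, 3.31-fold (adjusted p = 1.04e-06, 3.17e-06 and 1.55e-05). The efferocytosis receptor Mertk differed by -0.18 ± 0.10 and did not pass (adjusted p = 0.169).

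Receptors and other genes of resident tissue macrophages, counted as 1 list, went both ways. Of 15 tested, 5 rose (33.3%, against 21.5% of all genes), 6 fell (40%, against 23.9%) and 4 did not pass, and the median was -0.14. Vsig4, a complement receptor, read 8.45, 8.39 and 7.86 on the ND arrays and 9.81, 9.65 and 9.50 on the HFD arrays and rose 2.67-fold (adjusted p = 7.79e-05). Folr2, a folate receptor, rose 1.52-fold (adjusted p = 0.00217). Retnla, a marker of alternatively activated macrophages, read 14.61, 14.48 and 14.32 on the ND arrays and 13.57, 13.77 and 13.92 on the HFD arrays and fell 1.65-fold (adjusted p = 0.000397). Timd4, a phosphatidylserine receptor, fell 1.54-fold (adjusted p = 0.00249) and Cd163, the haemoglobin-haptoglobin scavenger receptor, 1.49-fold (adjusted p = 0.00264).

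**Figure D3:**
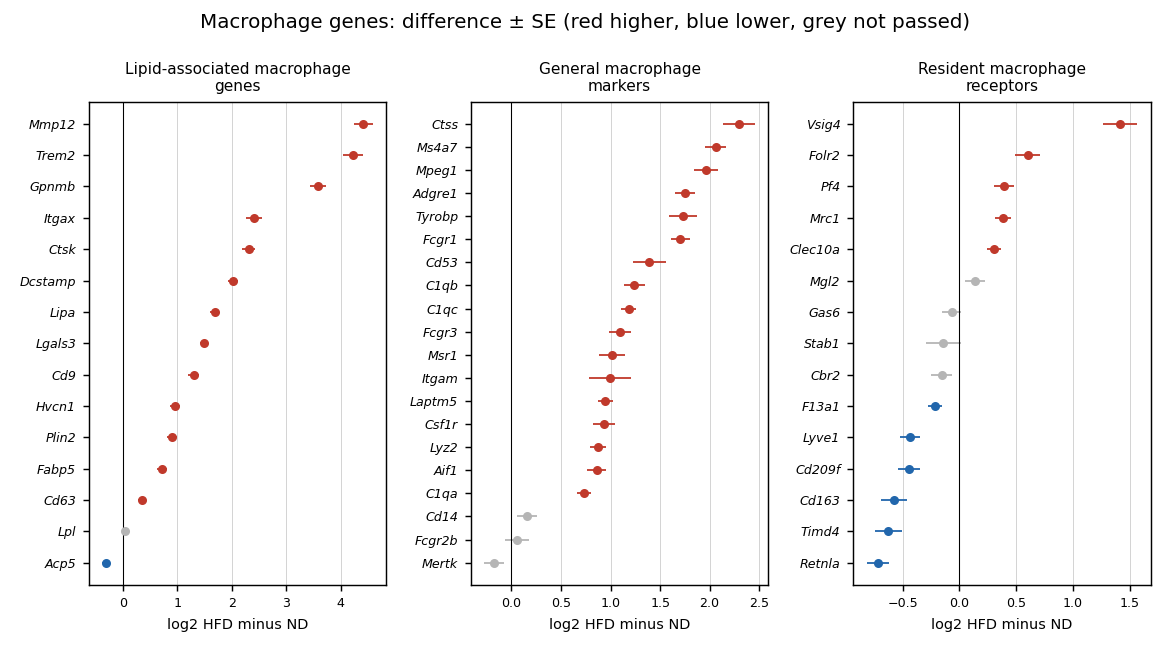
Difference between diets (log2, HFD minus ND, horizontal axis) with its SE for each tested member of the lipid-associated macrophage genes (15), the general macrophage markers (20) and the resident macrophage receptors (15). Red passed as higher, blue as lower and grey did not pass. The first lists lie mostly right of 0, with medians of 1.48 and 1.05. The list headed resident macrophage receptors, which also holds other genes, lies on both sides, with a median of -0.14.

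Chemokines and cytokines mostly rose. Of 24 tested (of 30), 15 rose, 2 fell and 7 did not pass, with a median of 0.80. Ccl2, the monocyte-attracting chemokine, was detected on 2 of 3 ND arrays and read 6.08, 6.34 and 6.44 on the ND arrays and 8.49, 8.39 and 8.34 on the HFD arrays, a 4.34-fold rise (adjusted p = 8.15e-07). Ccl7, a related monocyte chemokine, rose 2.82-fold (adjusted p = 3.26e-05). The macrophage inflammatory chemokine Ccl4 rose 2.95-fold (adjusted p = 2.16e-06), and the related Ccl3 was undetected on all ND arrays and at least 2.29-fold higher (adjusted p = 1.4e-05). The falls were Cxcl9, the interferon-gamma induced T cell chemokine (difference -0.79 ± 0.09, adjusted p = 0.000148), and Il1b, interleukin 1 beta (difference -0.49 ± 0.16, adjusted p = 0.0303), which was detected on 2 of 3 HFD arrays. The call for Il1b was lost without ND replicate 1, ND replicate 3 or HFD replicate 3 (adjusted p = 0.0912, 0.076 and 0.079). Its antagonist Il1rn, described above, was among the largest rises.

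Antigen presentation genes rose more often than they fell. Of 13 MHC class II and dendritic cell genes tested, 9 rose, 3 fell and 1 did not pass, with a median of 0.49. H2-DMb1, a chain of the peptide-loading chaperone, rose 2.49-fold (adjusted p = 5.65e-06) and Cd74, the invariant chain, read 14.09, 14.12 and 13.82 on the ND arrays and 14.63, 14.63 and 14.47 on the HFD arrays, a 1.48-fold rise (adjusted p = 0.00128). Ciita, the master activator of MHC class II, rose 1.64-fold (adjusted p = 7.31e-05), less on its other probe, which differed by 0.31. Clec9a, a marker of cross-presenting dendritic cells, rose 1.81-fold (adjusted p = 0.00556). The falls were Itgae (difference -0.45 ± 0.11), Cd209a (-0.42 ± 0.10) and the dendritic cell factor Zbtb46 (-0.39 ± 0.08), with adjusted p = 0.00727, 0.00712 and 0.00419.

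The lists of T and NK cell markers, of neutrophil and mast cell markers and of interferon-stimulated genes were below the 45.4% called over all genes, at 40%, 41.7% and 15.4%. Of 10 T and NK cell markers tested (of 22), 3 rose, 1 fell and 6 did not pass. The rises were Il7r, the regulatory T cell factor Foxp3 (difference 0.47 ± 0.07, adjusted p = 0.000531) and Cd8b1 (0.43 ± 0.07, adjusted p = 0.00132), whose other probe did not pass (0.20). Thy1 and the granule gene Nkg7 differed by 0.21 ± 0.09 and 0.26 ± 0.12 and did not pass (adjusted p = 0.0857 and 0.094). The count of rises in this list was 6 with cyclic loess normalization and 5 without HFD replicate 1. The fall was Prf1 (difference -0.40 ± 0.14, adjusted p = 0.0482), whose arrays overlapped between the diets. Falls in this list numbered 0 with cyclic loess normalization, without the detection filter, with the probe of the largest interquartile range and with only the 6 arrays compared. They also numbered 0 without ND replicate 2 or 3, HFD replicate 2 or 3, or any 1 of the LU arrays. Of 12 neutrophil and mast cell markers tested, 3 rose, 2 fell and 7 did not pass. S100a8, a calcium-binding protein of neutrophils, read 9.99, 8.62 and 9.66 on the ND arrays and 11.33, 11.69 and 11.03 on the HFD arrays, a 3.80-fold rise (adjusted p = 0.0008). Of other neutrophil genes, Csf3r rose 1.71-fold and Elane fell 1.22-fold (adjusted p = 0.000163 and 0.0358). Of mast cell genes, Cpa3 rose 1.54-fold and Gata2 fell 1.21-fold (adjusted p = 0.0303 and 0.0257). The mast cell receptor Kit differed by -0.08 ± 0.08 (adjusted p = 0.445). The falls in this list numbered 0 with cyclic loess normalization, with only the 6 arrays compared and without ND replicate 1 or 2. They numbered 1 with median scaling, without the detection filter and without HFD replicate 1, 2 or 3 or LU replicate 1. Where detection at p under 0.01 on all 9 arrays was required, the list counted 1 rise and 1 fall. Only 3 of 14 B and plasma cell markers were tested, of which 1 rose, 1 fell and 1 did not pass (66.7% called, against 45.4%). Of these, Cd22 was undetected on all ND arrays and at least 1.66-fold higher (adjusted p = 4.44e-05). Ebf1 fell 1.50-fold on its main probe (adjusted p = 0.00144), while its other probe differed by 0.02. Among 13 interferon-stimulated genes, 2 rose, 0 fell and 11 did not pass, with Gbp2, a guanylate-binding protein, at 0.12 ± 0.08 (adjusted p = 0.24). Complement genes were mixed: 7 of 14 rose (50%, against 21.5% of all genes), 3 fell (21.4%, against 23.9%) and 4 did not pass. C1qb, of the macrophage-made C1q complex, rose 2.36-fold and the alternative pathway protease Cfb 1.98-fold (adjusted p = 2.49e-05 and 0.000425), whereas C2, the classical pathway protease, fell 1.88-fold (adjusted p = 4.93e-05).

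Lysosomal genes mostly rose. Of 32 enzymes, membrane proteins and proton pump subunits tested (of 37), 21 rose, 1 fell and 10 did not pass, with a median of 0.40. TFEB and its relatives, the transcription factors of lysosome formation, bind a motif with the core CACGTG, so the upstream windows of the genes with the largest rise are shown with that core in capitals. Lgmn (chr12:102439679-102439978, minus strand, the first of 2 listed starts) holds none, and Ctsl (chr13:64370471-64370770, minus strand) holds it at -236 relative to the start.
Lgmn: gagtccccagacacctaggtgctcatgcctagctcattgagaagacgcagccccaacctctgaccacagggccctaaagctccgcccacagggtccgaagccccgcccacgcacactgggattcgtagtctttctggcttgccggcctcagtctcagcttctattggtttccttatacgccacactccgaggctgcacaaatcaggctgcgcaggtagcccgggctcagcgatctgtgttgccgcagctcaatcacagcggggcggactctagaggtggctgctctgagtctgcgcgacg
Ctsl: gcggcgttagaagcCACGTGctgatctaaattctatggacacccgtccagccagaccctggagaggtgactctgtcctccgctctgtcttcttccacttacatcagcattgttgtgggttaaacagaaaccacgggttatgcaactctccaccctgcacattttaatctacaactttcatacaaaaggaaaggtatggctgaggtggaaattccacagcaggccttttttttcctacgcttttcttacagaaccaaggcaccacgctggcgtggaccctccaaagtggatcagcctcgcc
The core, which reads the same on both strands, was in 12 of 26 tested lysosomal genes with a promoter sequence (46.2%), in 8 of the 17 that rose (47.1%) and in 976 of 8284 tested genes (11.8%).

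Lgmn, the asparaginyl endopeptidase legumain, was measured at 12.06, 12.16 and 11.80 on the ND arrays and 13.56, 13.49 and 13.36 on the HFD arrays, a 2.76-fold rise (adjusted p = 6.12e-06). Ctsl, cathepsin L, read 7.26, 7.39 and 7.47 on the ND arrays and 8.80, 8.91 and 8.54 on the HFD arrays, a 2.60-fold rise (adjusted p = 2.45e-05). The groups were separate for both proteases. Ctsa, cathepsin A, rose 2.45-fold and Gusb, beta-glucuronidase, 2.44-fold (adjusted p = 2.84e-05 and 4.27e-06). Atp6v0a1, a membrane subunit of the proton pump, rose 2.0-fold (adjusted p = 0.000331). Ctsf, cathepsin F, was the gene that fell (difference -0.37 ± 0.10, adjusted p = 0.0167), and its adjusted p was 0.0535 without ND replicate 2. Lamp2, a structural membrane protein of the lysosome, differed by 0.06 ± 0.06 (adjusted p = 0.457). Macrophage markers rose in the same arrays, and their part in the lysosomal result was not tested.

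Cholesterol synthesis genes rose more often than they fell. Of 17 genes of cholesterol synthesis and uptake tested, 9 rose, 1 fell and 7 did not pass, with a median of 0.43. Dhcr7, an enzyme of the last steps of cholesterol synthesis, read 7.03, 6.59 and 7.55 on the ND arrays and 8.02, 8.54 and 8.01 on the HFD arrays, a 2.19-fold rise (adjusted p = 0.00293). Insig1, which holds the SREBP precursors in the endoplasmic reticulum and is itself an SREBP target, rose 2.11-fold (adjusted p = 0.000864). Fdps, which makes farnesyl pyrophosphate, rose 1.66-fold, Hsd17b7 1.68-fold and Msmo1, a sterol demethylase, 1.60-fold (adjusted p = 0.0076, 0.000895 and 0.0002). Squalene epoxidase, Sqle, differed by 0.45 ± 0.17 and did not pass (adjusted p = 0.0567). It passed as higher under 7 of the 19 alternative settings, with an adjusted p of 0.0076 without ND replicate 3.

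Sterol export genes were divided. Of 14 tested, 5 rose (35.7%, against 21.5% of all genes), 3 fell (21.4%, against 23.9%) and 6 did not pass, with a median of 0.05. Pltp, the phospholipid transfer protein, rose 2.75-fold (adjusted p = 6.23e-07) and Abcg1, which loads cholesterol onto high-density lipoprotein, 1.68-fold (adjusted p = 3.08e-05). Ch25h, cholesterol 25-hydroxylase, rose 1.73-fold (adjusted p = 0.0013). Apoe, the apolipoprotein of macrophages and adipocytes, fell by a small amount (difference -0.33 ± 0.08, adjusted p = 0.0101) and Cyp27a1, sterol 27-hydroxylase, 1.53-fold (adjusted p = 0.000163).

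Cell cycle genes mostly rose. Of 24 tested, 20 rose, 0 fell and 4 did not pass, with a median of 0.97. Tk1, thymidine kinase of the S phase, was undetected on all ND arrays and at least 5.55-fold higher on the HFD (adjusted p = 8.47e-07), and its other probe differed by 0.66. Top2a, the topoisomerase of dividing cells, was detected on 2 of 3 ND arrays and read 6.31, 6.13 and 5.72 on the ND arrays and 7.97, 7.93 and 7.83 on the HFD arrays, a 3.61-fold rise (adjusted p = 9.06e-06). Birc5, survivin, rose 3.28-fold, Cdk1, the mitotic kinase, 3.03-fold and Plk1, polo-like kinase, 2.69-fold (adjusted p = 1.53e-05, 7.08e-06 and 5.62e-05). Cdkn1a, the p21 inhibitor of the cycle, differed by 0.27 ± 0.21 and did not pass (adjusted p = 0.324), but without ND replicate 2 it passed as higher (difference 0.57, adjusted p = 0.00395). Where detection at p under 0.01 on all 9 arrays was required, the list counted 12 rises. That filter left out the main probe of Tk1 and that of Top2a, which were not detected on every ND array. The count of 12 therefore does not separate lost calls from genes no longer tested.

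Immediate early and heat shock genes went both ways. Of 21 tested, 6 rose (28.6%, against 21.5% of all genes), 7 fell (33.3%, against 23.9%) and 8 did not pass. Egr2, a zinc finger factor of activated cells, read 8.45, 8.0 and 8.17 on the ND arrays and 11.02, 11.11 and 10.66 on the HFD arrays, a 6.60-fold rise (adjusted p = 1.55e-06). Atf3, a stress-induced factor, read 8.09, 8.47 and 8.10 on the ND arrays and 11.13, 10.98 and 10.63 on the HFD arrays, a 6.46-fold rise (adjusted p = 1.51e-06). Fos rose 3.12-fold and Egr3 1.82-fold (adjusted p = 1.54e-05 and 0.00329), whereas Klf2 and Klf4, factors of the quiescent endothelium, fell 1.51-fold and 1.52-fold (adjusted p = 0.00242 and 0.00333).

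Collagens rose as a group. Of 15 tested, 13 rose, 0 fell and 2 did not pass, with a median of 0.61. Col3a1, of the fibrillar collagen of early scars, was measured at 10.42, 9.97 and 10.09 on the ND arrays and 11.72, 11.75 and 11.56 on the HFD arrays, a 2.87-fold rise (adjusted p = 1.09e-05). Col1a1, of the main fibrillar collagen, read 10.83, 10.66 and 10.41 on the ND arrays and 11.92, 11.69 and 11.57 on the HFD arrays, a 2.13-fold rise (adjusted p = 7.97e-05). The HFD arrays were above the ND arrays for both. Col6a2, of the microfibrillar collagen around adipocytes, rose 2.09-fold on its main probe (adjusted p = 0.000447), with 0.33 on its other probe. Col16a1 rose 2.42-fold and Col5a2 1.75-fold (adjusted p = 0.000266 and 0.00155), and Col15a1 and Col14a1 differed by 0.29 ± 0.16 and 0.11 ± 0.09 and did not pass (adjusted p = 0.181 and 0.367).

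Of 27 other matrix genes tested, 13 rose, 3 fell and 11 did not pass, with a median of 0.33. The shares were 48.1% higher against 21.5% of all genes, and 11.1% lower against 23.9%. Timp1, an inhibitor of matrix metalloproteinases, read 7.98, 7.49 and 7.52 on the ND arrays and 10.50, 10.16 and 9.73 on the HFD arrays, a 5.53-fold rise (adjusted p = 1.24e-05). Adam8, a leukocyte metalloproteinase, rose 4.92-fold (adjusted p = 1.01e-06), and the collagenase Mmp13, detected on 2 of 3 ND arrays, 4.07-fold (adjusted p = 0.000453). Mmp3, stromelysin, rose 2.57-fold and Lum, the collagen-binding proteoglycan lumican, 2.28-fold (adjusted p = 0.000224 and 0.000371). Mmp9, gelatinase B, moved the other way and fell 2.11-fold (adjusted p = 0.000704), with Fmod, fibromodulin, and Timp3, a matrix-bound inhibitor, as the other falls (difference -0.63 ± 0.13 and -0.47 ± 0.11, adjusted p = 0.00308 and 0.00781).

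Fibroblast markers were divided, with 37.5% called against 45.4% of all genes. Among 16 preadipocyte and fibroblast markers tested, 3 rose, 3 fell and 10 did not pass, with a median of -0.01. Pdgfra, the receptor that marks adipose progenitors, differed by -0.04 ± 0.07 (adjusted p = 0.67). Ccn5, a secreted matricellular protein, read 11.66, 10.59 and 11.34 on the ND arrays and 13.44, 13.34 and 13.51 on the HFD arrays, a 4.71-fold rise (adjusted p = 5.84e-05). Gsn, gelsolin, fell 1.53-fold and Dlk1, the preadipocyte factor, 1.44-fold (adjusted p = 0.0029 and 0.000553).

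Markers of the mesothelium, the cell sheet over the depot, were mostly lower on the HFD. Of 13 tested, 1 rose, 9 fell and 3 did not pass, with a median of -0.57. Their summed signal was 24280 to 26430 on the ND arrays and 24950 to 27250 on the HFD arrays, and the groups overlapped. Upk3b, a uroplakin, read 10.45, 10.68 and 10.73 on the ND arrays and 9.66, 9.67 and 10.18 on the HFD arrays, a 1.72-fold fall (adjusted p = 0.00213). Gpm6a, a membrane glycoprotein, fell 1.59-fold and Lrrn4 1.81-fold (adjusted p = 0.00134 and 0.00264), the latter detected on 2 of 3 HFD arrays. The keratin Krt19 was undetected on all HFD arrays and at least 1.39-fold lower (adjusted p = 0.00897). Bnc1, a transcription factor of these cells, fell 1.57-fold (adjusted p = 0.000642). The count of falls was 4 where detection at p under 0.01 on all 9 arrays was required, and 6 without ND replicate 3 or without HFD replicate 1.

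Of 21 endothelial markers tested, 1 rose, 8 fell and 12 did not pass, with a median of -0.18. The 42.9% called was below the 45.4% of all genes, with 38.1% lower against 23.9%. The falls included Vegfa, a growth factor that adipocytes release and not a marker of endothelial cells. The 1 rise was lost in 11 of the 19 alternative settings. Gpihbp1, which carries lipoprotein lipase to the capillary surface, fell 1.43-fold (adjusted p = 0.00941), and Cldn5, a tight junction protein, 1.33-fold (adjusted p = 0.00751). Adgrf5 and Robo4 fell 1.43-fold and 1.37-fold (adjusted p = 0.00782 and 0.00433). The general markers Cdh5 and Esam differed by -0.09 ± 0.07 and -0.11 ± 0.08 and did not pass (adjusted p = 0.329 and 0.255). Vegfa, the growth factor that endothelium responds to and that adipocytes release, read 13.03, 13.26 and 13.16 on the ND arrays and 12.23, 12.36 and 12.92 on the HFD arrays, a 1.56-fold fall (adjusted p = 0.0083). Of 10 pericyte and smooth muscle markers, 0 rose, 3 fell (30%, against 23.9% of all genes) and 7 did not pass. The falls numbered 0 without ND replicate 2, HFD replicate 2 or HFD replicate 3, and 1 without ND replicate 3 or LU replicate 2, with cyclic loess normalization, with median scaling, without the detection filter and with only the 6 arrays compared.

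**Figure D4:**
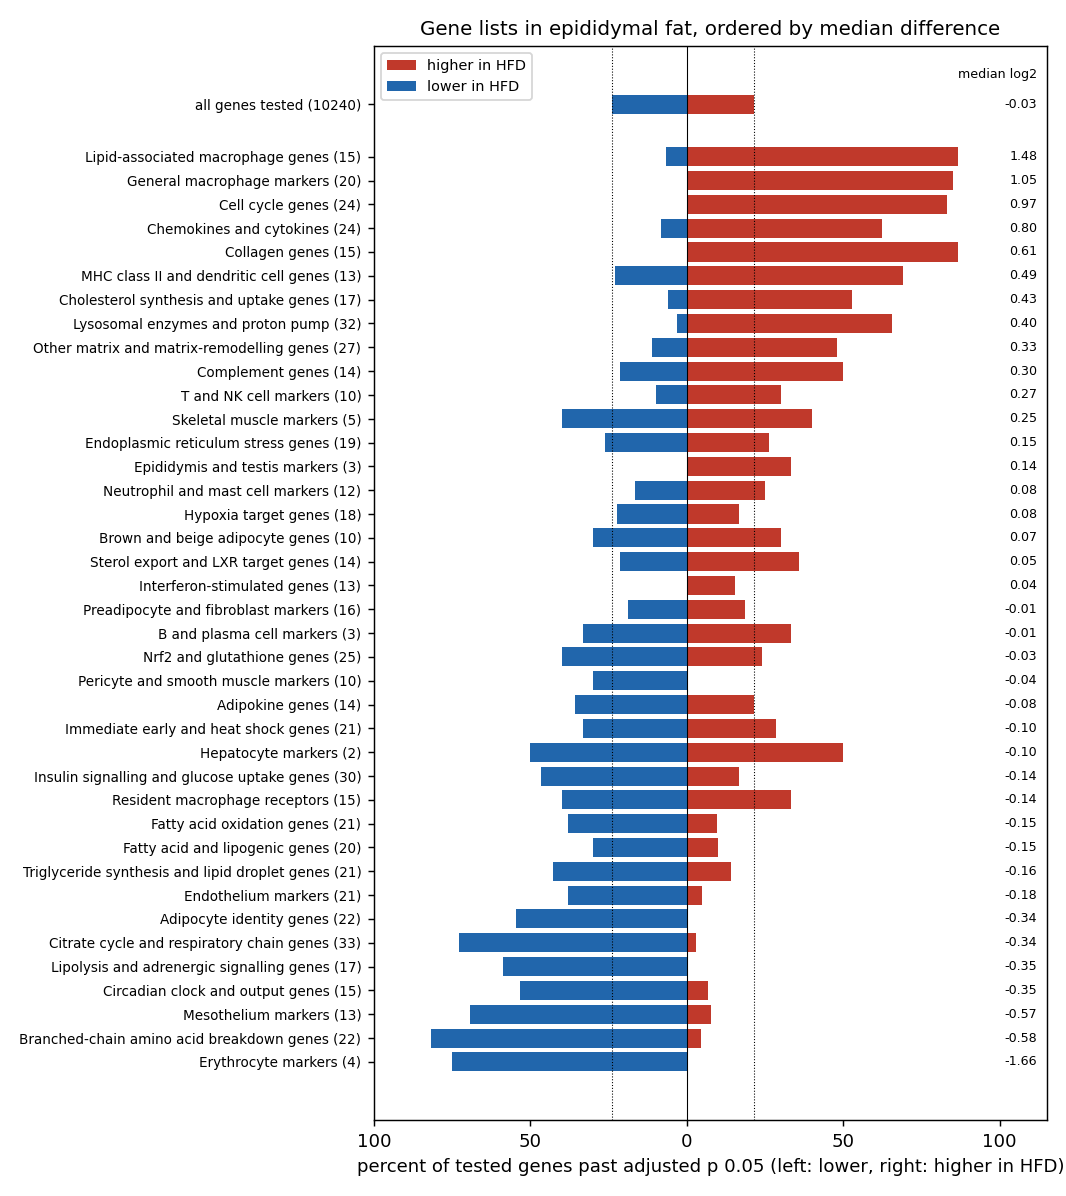
Percent of the tested members of each of 39 gene lists that passed an adjusted p of 0.05 as higher (red, right) or lower (blue, left) on the HFD, with the number tested in parentheses and the median log2 difference at the right edge. Dotted lines mark the shares over all 10240 genes, 21.5% higher and 23.9% lower. Macrophage, cell cycle and collagen lists reach farthest right, and erythrocyte, branched-chain amino acid, citrate cycle and mesothelium lists reach farthest left.

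Adipocyte identity genes were lower or did not pass. Of 22 tested, 0 rose, 12 fell and 10 did not pass, with a median of -0.34. Their summed signal was 433100 to 457600 on the ND arrays and 376900 to 400200 on the HFD arrays, without overlap, while that of the general macrophage markers rose in the same arrays. The part of macrophage RNA in these falls was not tested. The rises in this list numbered 1 without background correction, with cyclic loess normalization, with the authors' values and with trend and robust moderation. They also numbered 1 with detection at p under 0.01 on all 9 arrays, with the probe of the largest interquartile range and without ND replicate 3. Pck1, the cytosolic enzyme that makes glycerol backbone for triglyceride in adipocytes, was measured at 11.17, 11.17 and 11.24 on the ND arrays and 9.57, 9.67 and 10.16 on the HFD arrays, a 2.63-fold fall (adjusted p = 4.1e-05). Acvr1c, the activin receptor ALK7 of adipocytes, read 12.36, 12.50 and 12.43 on the ND arrays and 11.09, 11.40 and 11.19 on the HFD arrays, a 2.30-fold fall (adjusted p = 3.08e-05). Klb, the co-receptor of FGF21, fell 1.76-fold and Car3, carbonic anhydrase 3, whose ND values lay near the top of the scale, at least 1.56-fold (adjusted p = 0.000602 and 0.000668).

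Core adipocyte genes changed by less. Pparg, the master factor of fat cell formation, differed by -0.42 ± 0.13 on its main probe (adjusted p = 0.0227) and by 0.10 and -0.27 on its other probes. Its call was lost without ND replicate 2, HFD replicate 1 or HFD replicate 2 (adjusted p = 0.066, 0.081 and 0.0658). Plin1, which coats the lipid droplet, fell 1.26-fold and Cidec, which fuses droplets, 1.27-fold (adjusted p = 0.00617 and 0.00183). Adipoq, adiponectin, read 15.86, 15.85 and 15.93 on the ND arrays and 15.75, 15.68 and 15.85 on the HFD arrays and did not pass (adjusted p = 0.143). Its values lay near the top of the scale.

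Among 14 adipokine genes tested, 3 rose (21.4%, against 21.5% of all genes), 5 fell (35.7%, against 23.9%) and 6 did not pass. Lep, leptin, the hormone that reports fat mass, read 15.44, 15.05 and 15.46 on the ND arrays and 16.01, 16.0 and 16.0 on the HFD arrays, a difference of 0.69 ± 0.10 (adjusted p = 0.00057). Its HFD values also lay at the top of the scale. Sfrp5, a secreted Wnt inhibitor, rose 2.0-fold (adjusted p = 0.000154). Agt, angiotensinogen, read 11.16, 11.33 and 11.03 on the ND arrays and 9.51, 9.53 and 9.77 on the HFD arrays, a 2.97-fold fall (adjusted p = 3.17e-06). Rbp4, the retinol carrier, fell 2.05-fold, Nrg4, neuregulin 4, 2.07-fold and Retn, resistin, 1.64-fold (adjusted p = 2.46e-05, 4.48e-05 and 0.000901).

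Among lipogenic genes 40% passed, against 45.4% of all genes. Of 20 tested, 2 rose, 6 fell and 12 did not pass, with a median of -0.15. Acacb, the acetyl-CoA carboxylase at the mitochondrial surface, read 12.08, 12.77 and 12.49 on the ND arrays and 10.92, 10.95 and 11.23 on the HFD arrays, a 2.66-fold fall (adjusted p = 0.000138). Thrsp, a lipogenic nuclear protein, fell 1.61-fold (adjusted p = 0.00245) and Aacs, acetoacetyl-CoA synthetase, 1.50-fold (adjusted p = 0.00256). Fasn, fatty acid synthase, differed by -0.52 ± 0.30 and did not pass (adjusted p = 0.193), but without ND replicate 2, its lowest ND array, it passed as lower (difference -0.90, adjusted p = 0.00905). Scd2, a stearoyl-CoA desaturase, was the largest rise of the list, 3.11-fold, with levels of 8.81, 7.37 and 9.09 on the ND arrays and 10.03, 10.41 and 9.72 on the HFD arrays (adjusted p = 0.00639). The count of rises was 5 without ND replicate 3.

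Among 21 triglyceride synthesis and lipid droplet genes, 3 rose, 9 fell and 9 did not pass, with a median of -0.16. The shares were 14.3% higher against 21.5% of all genes, and 42.9% lower against 23.9%. Cidea, a droplet fusion protein also used by brown fat, read 8.40, 8.95 and 8.65 on the ND arrays and 7.36, 6.95 and 7.62 on the HFD arrays, a 2.57-fold fall (adjusted p = 0.000248). Gpat3 and Gpam, which add the first acyl chain to glycerol phosphate, fell 1.76-fold and 1.66-fold (adjusted p = 0.000182 and 0.00953). Plin2, the droplet coat of cells other than mature adipocytes, rose 1.87-fold (adjusted p = 9.44e-05). The count of rises in this list was 6 without ND replicate 3.

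Lipolysis genes fell or did not pass. Of 17 tested, 0 rose, 10 fell and 7 did not pass, with a median of -0.35. The rises numbered 1 without background correction, with cyclic loess normalization, with the authors' values and with trend and robust moderation. They also numbered 1 with detection at p under 0.01 on all 9 arrays and with the probe of the largest interquartile range. Ces1f was described among the largest falls, and the related lipase Ces1d read 15.91, 15.91 and 15.94 on the ND arrays and 15.09, 14.83 and 15.17 on the HFD arrays. Its ND values lay at the top of the scale, so its fall was at least 1.85-fold (adjusted p = 4.12e-05). Hcar1, the lactate receptor that restrains lipolysis, read 10.37, 10.80 and 11.07 on the ND arrays and 9.90, 10.03 and 9.91 on the HFD arrays, a 1.74-fold fall (adjusted p = 0.00245). Hcar2, the receptor for niacin and ketone bodies, fell 1.97-fold (adjusted p = 7.06e-05). Lipe, hormone-sensitive lipase, fell 1.50-fold on its main probe (adjusted p = 0.0014), and Pnpla2, adipose triglyceride lipase, also near the top of the scale on the ND, at least 1.34-fold (adjusted p = 0.000428). The call for Lipe was lost on its other probe, which differed by -0.25. Adipocyte genes that release fatty acids and genes that restrain their release were both among the falls.

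**Figure D5:**
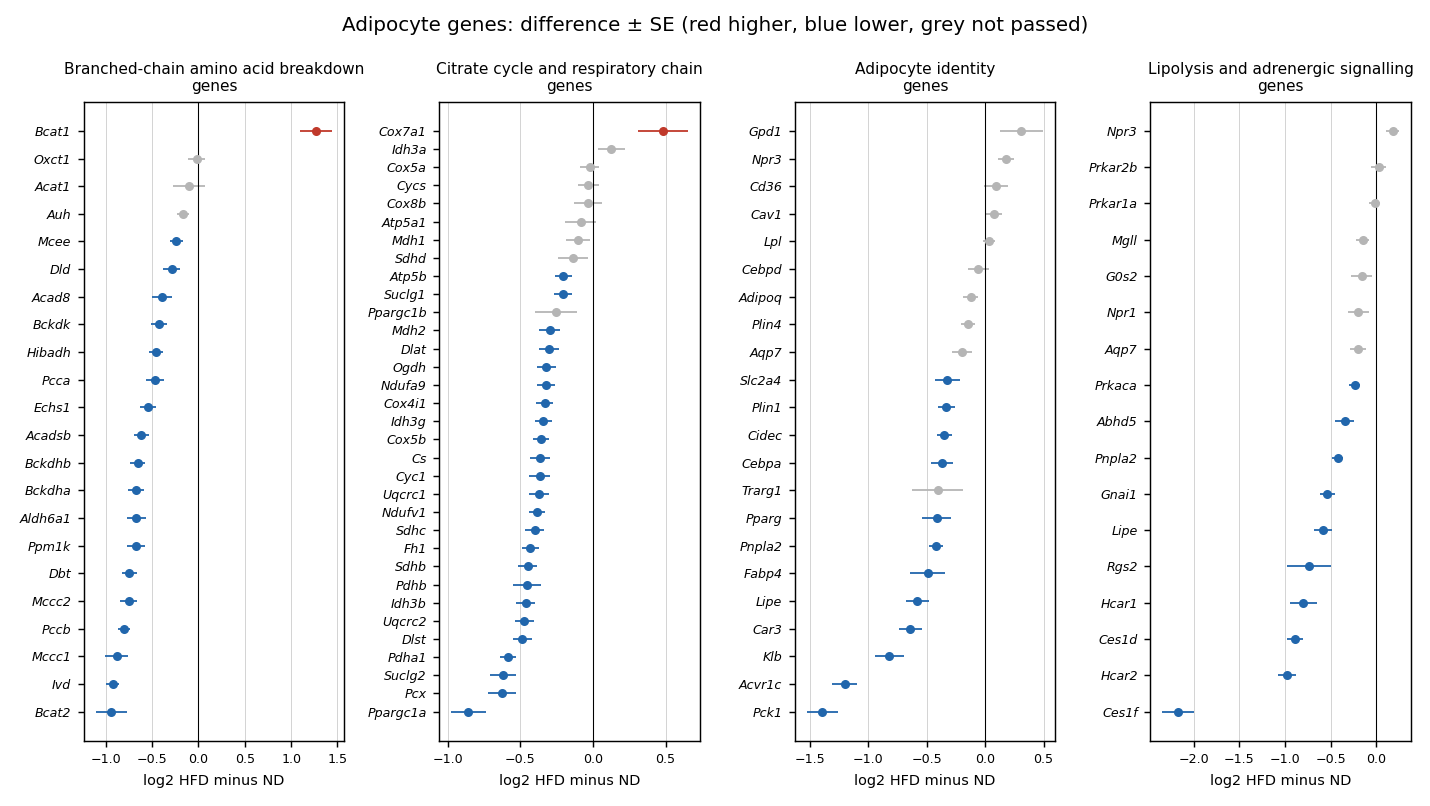
Difference between diets (log2, HFD minus ND, horizontal axis) with its SE for each tested member of the branched-chain amino acid breakdown genes (22), citrate cycle and respiratory chain genes (33), adipocyte identity genes (22) and lipolysis and adrenergic signalling genes (17). Red passed as higher, blue as lower and grey did not pass. Most points lie left of 0, with medians of -0.58, -0.34, -0.34 and -0.35, and Bcat1 stands apart at 1.27.

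Breakdown of branched-chain amino acids, which supplies acetyl-CoA for fat synthesis in adipocytes, was the metabolic list with the lowest median. Of 22 genes tested (of 25), 1 rose, 18 fell and 3 did not pass, and the median was -0.58. Bcat2, the mitochondrial aminotransferase of the first step, was measured at 11.24, 12.06 and 11.62 on the ND arrays and 10.66, 10.74 and 10.69 on the HFD arrays, a 1.92-fold fall (adjusted p = 0.00162). The subunits of the next, committed step, Bckdha, Bckdhb and Dbt, fell 1.59-fold, 1.57-fold and 1.68-fold (adjusted p = 0.00025, 0.000212 and 9.8e-05). Ppm1k, the phosphatase that activates this complex, and Bckdk, the kinase that inactivates it, also fell (difference -0.67 ± 0.09 and -0.42 ± 0.09, adjusted p = 0.000425 and 0.00421). Farther down the leucine branch Ivd, isovaleryl-CoA dehydrogenase, read 13.0, 13.02 and 13.0 on the ND arrays and 12.09, 11.95 and 12.21 on the HFD arrays, a 1.90-fold fall (adjusted p = 1.4e-05). Mccc1, of the methylcrotonyl-CoA carboxylase, fell 1.84-fold and Pccb, of propionyl-CoA carboxylase, 1.74-fold (adjusted p = 0.000387 and 2.45e-05). The gene that rose was Bcat1, the cytosolic aminotransferase, at 8.28, 7.83 and 8.62 on the ND arrays and 9.69, 9.54 and 9.32 on the HFD arrays, a 2.41-fold rise (adjusted p = 0.000349). The aminotransferases of the cytosol and the mitochondrion moved in opposite directions.

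Mitochondrial energy genes were mostly lower. Of 33 citrate cycle and respiratory chain genes tested, 1 rose, 24 fell and 8 did not pass, with a median of -0.34. The falls were small, and 0 members were past 2-fold. Ppargc1a, the coactivator that drives mitochondrial genes, read 8.28, 8.43 and 8.06 on the ND arrays and 7.61, 7.25 and 7.33 on the HFD arrays, a 1.81-fold fall (adjusted p = 0.000369). Pcx, pyruvate carboxylase, fell 1.54-fold, Suclg2, of succinyl-CoA ligase, 1.54-fold, and Pdha1, of pyruvate dehydrogenase, 1.50-fold (adjusted p = 0.0008, 0.000435 and 5.09e-05). Cs, citrate synthase, fell 1.29-fold (adjusted p = 0.00209). Cox7a1, a muscle and brown fat form of a cytochrome oxidase subunit, was the gene that rose (difference 0.48 ± 0.17, adjusted p = 0.0446). That call was lost without any 1 of the HFD arrays (adjusted p = 0.0554, 0.122 and 0.104) or LU arrays (0.0637, 0.0642 and 0.0642), with only the 6 arrays compared (0.09) and under the replicate block (0.0533).

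Fatty acid oxidation genes gave 2 rises, 8 falls and 11 not passed of 21, with 47.6% called against 45.4% of all genes and a median of -0.15. Ucp3, a mitochondrial carrier, read 7.98, 8.72 and 8.34 on the ND arrays and 6.87, 7.25 and 7.28 on the HFD arrays, a 2.32-fold fall (adjusted p = 0.000517). Crat, carnitine acetyltransferase, fell 1.57-fold and Eci1, an enoyl-CoA isomerase, 1.56-fold (adjusted p = 0.0014 and 0.000323). Cpt1b, the muscle form of the carnitine palmitoyltransferase that admits fatty acids to mitochondria, rose 2.51-fold (adjusted p = 3.71e-06), less on its other probe, which differed by 0.56. Of 10 brown and beige fat genes tested, 3 rose (30%, against 21.5% of all genes) and 3 fell (30%, against 23.9%). Ebf2, a factor of brown precursor cells, fell 1.76-fold (adjusted p = 7.52e-05).

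Insulin signalling and glucose uptake genes were lower more often than higher. Of 30 tested, 5 rose, 14 fell and 11 did not pass, with a median of -0.14, and the falls numbered 8 without HFD replicate 1. The shares were 16.7% higher against 21.5% of all genes, and 46.7% lower against 23.9%. Insr, the insulin receptor, read 13.04, 13.33 and 13.15 on the ND arrays and 12.61, 12.52 and 12.64 on the HFD arrays, a 1.50-fold fall (adjusted p = 0.000348). Irs2, an adaptor of the receptor, fell 1.61-fold and Akt2, the kinase of glucose uptake in fat, 1.57-fold (adjusted p = 0.0021 and 0.0106). Slc2a4, the insulin-regulated glucose transporter GLUT4, fell 1.25-fold (adjusted p = 0.0369), a call lost without ND replicate 2 or 3 (0.0539 and 0.111) or HFD replicate 1 or 2 (0.126 and 0.0798). Grb10, an adaptor that inhibits the receptor, fell 1.86-fold (adjusted p = 6.09e-05). Slc2a3, the high-affinity transporter GLUT3, read 10.28, 10.76 and 10.31 on the ND arrays and 9.14, 8.80 and 9.02 on the HFD arrays, a 2.75-fold fall (adjusted p = 3.4e-05). Ptpn1, the phosphatase PTP1B that switches the receptor off, rose (difference 0.42 ± 0.07, adjusted p = 0.000926).

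Clock genes were lower more often than higher. Of 15 tested, 1 rose, 8 fell and 6 did not pass, with a median of -0.35. The shares were 6.67% higher against 21.5% of all genes, and 53.3% lower against 23.9%. The time of day at which tissue was taken is not in the labels, and a difference in it between the groups cannot be told apart from diet. Nr1d1, the repressor REV-ERB alpha, read 8.67, 8.32 and 8.52 on the ND arrays and 7.55, 7.76 and 7.74 on the HFD arrays, a 1.76-fold fall (adjusted p = 0.000167). Per2 fell 1.69-fold and Tef, a factor that binds the D-box, 1.43-fold (adjusted p = 0.00107 and 0.00198). Per3 fell 2.0-fold on its main probe (adjusted p = 0.000641) and differed by -0.20 on its other probe. Bhlhe40, a repressor that also responds to hypoxia and immune signals, rose 1.44-fold (adjusted p = 0.00248), and Clock differed by -0.17 ± 0.08 (adjusted p = 0.127). The D-box TTATGTAA, searched on both strands, was in 1 of 13 clock list promoters (7.69%) and in 56 of 8284 tested genes (0.676%).

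Genes of glutathione and the Nrf2 response went both ways. Of 25 tested, 6 rose (24%, against 21.5% of all genes), 10 fell (40%, against 23.9%) and 9 did not pass. Hmox1, haem oxygenase 1, read 9.26, 9.85 and 9.26 on the ND arrays and 10.86, 10.64 and 10.42 on the HFD arrays, a 2.27-fold rise (adjusted p = 0.000733), and Srxn1, sulfiredoxin, rose 1.83-fold (adjusted p = 3.29e-05). Gpx3, the secreted glutathione peroxidase, read 14.48, 14.78 and 14.30 on the ND arrays and 13.05, 12.72 and 13.12 on the HFD arrays, a 2.94-fold fall (adjusted p = 2.37e-05). Gsta3 and Gstt1, glutathione transferases, fell 2.17-fold and 2.0-fold beside the larger fall of Gsta4 (adjusted p = 2.46e-05 and 0.000116).

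Endoplasmic reticulum stress genes were close to the shares of all genes, with 5 higher (26.3% against 21.5%) and 5 lower (26.3% against 23.9%) of 19, with a median of 0.15 and 8 higher without ND replicate 3. Sdf2l1, a chaperone cofactor, rose 1.81-fold, and Chac1, a glutathione-degrading enzyme induced by ATF4, fell 2.44-fold (adjusted p = 0.000102 and 1.29e-05). Hypoxia targets gave 3 rises, 4 falls and 11 not passed of 18, with 38.9% called against 45.4% of all genes. Car9, carbonic anhydrase 9, was undetected on all ND arrays and at least 2.69-fold higher (adjusted p = 7.76e-07), whereas Egln3, an oxygen-sensing prolyl hydroxylase, fell 2.22-fold and Ndrg1 1.58-fold (adjusted p = 0.000627 and 0.000883). The list as a whole had a median of 0.08.

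Markers of neighbouring tissues and of blood were also examined. Of 4 erythrocyte markers tested, 0 rose, 3 fell (75%, against 23.9% of all genes) and 1 did not pass. Their summed signal was 66650 to 72670 on the ND arrays and 36920 to 61570 on the HFD arrays. Slc4a1, the anion exchanger band 3, read 10.12, 10.39 and 9.01 on the ND arrays and 6.70, 8.33 and 8.34 on the HFD arrays, with 1 HFD array apart from the others (adjusted p = 0.00543). Alas2, the haem synthesis enzyme of red cells, fell 3.11-fold and Hbb-b2, a beta globin detected on 1 of 3 HFD arrays, 3.20-fold (adjusted p = 0.0027 and 0.00354), and Hba-a1, an alpha globin, differed by -0.40 ± 0.15 (adjusted p = 0.0573). Hba-a1, whose ND values lay at the top of the scale and which gave most of the summed signal, passed as lower under 6 of the 19 alternative settings, with an adjusted p of 0.0161 without HFD replicate 2. Of 16 epididymis and testis markers, 3 were tested, and Prm1, protamine of sperm, read 7.79, 6.95 and 7.14 on the ND arrays and 10.23, 8.38 and 8.35 on the HFD arrays (adjusted p = 0.016). That call was lost without ND replicate 2 (adjusted p = 0.0534). The summed signal of these markers was 884.3 to 1023 on the ND arrays and 1198 to 2025 on the HFD arrays. Of 13 skeletal muscle markers, 5 were tested: Pvalb, the calcium buffer parvalbumin, read 6.15, 5.89 and 6.39 on the ND arrays and 9.89, 10.02 and 9.29 on the HFD arrays (adjusted p = 1.18e-06, detected on 2 of 3 ND arrays), Tnni2, fast troponin I, rose 1.77-fold (adjusted p = 0.00247), and Myl1, a myosin light chain, fell 1.33-fold (adjusted p = 0.00364). The summed signal of the muscle markers, most of it from Myl1, was 11230 to 13680 on the ND arrays and 10050 to 11060 on the HFD arrays. Of 12 hepatocyte markers, 2 were tested: Cyp2e1, a cytochrome P450 also made in fat, was near the top of the scale on the ND and fell at least 2.80-fold (adjusted p = 6.71e-06), and Hpx, haemopexin, was undetected on all ND arrays and at least 1.54-fold higher (adjusted p = 2.49e-05). Albumin and apolipoprotein A1, the defining hepatocyte markers, were below the detection filter. The summed signal of the hepatocyte markers, nearly all of it from Cyp2e1, was 59720 to 59860 on the ND arrays and 19900 to 24880 on the HFD arrays. The part of blood or neighbouring tissue in the results above was not tested.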

How the data were processed

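Illumina bead arrays were hybridised with cRNA amplified from 550 ng of total RNA. GenomeStudio 2009.2 and R 2.4.1 are named in the submitters' processing notes. Per the file headers, the deposited table holds 1 average signal intensity and 1 detection p-value per probe and array. The authors' own log2 matrix (17128 probes in fat, column medians 9.001 to 9.011, centring method not given in the sources used here, correlation with log2 of the deposited signal at least 0.9999) served as an alternative. With R 4.3.3 and limma 3.58.1, the 9 fat arrays were background corrected from the detection p-values, quantile normalized and turned to log2 (the neqc method, offset 16). The filter kept the 19549 probes whose detection p was under 0.05 on each of the 3 arrays of some diet, of which 15274 had a gene name. Names come from GEO's platform annotation, where 22883 probes have 1 gene, 13 several and 5825 of the authors' 28721 probes none, and 22836 were found in the GRCm38.p6 table. The 4275 kept probes without a single name were not analysed by gene. Each gene took its probe with the highest mean. A linear model with empirical Bayes moderation was fitted to the 9 arrays, with Benjamini-Hochberg adjustment across all 10240 genes. A list's summed signal adds the linear values of its tested members on an array. Promoter sequences come from RefSeq (GRCm38.p6).

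The comparison, the 39 lists and their members were chosen with earlier results of these data known. Named genes were, by rule, the 15 largest rises and falls among called genes whose arrays did not overlap, and up to 5 called and 2 uncalled members of each list. Acp5, Apoe, Bckdha, Bckdhb, Bckdk, Cd209a, Cidec, Cox7a1, Cs, Ctsf, Cxcl9, Dbt, Fasn, Fmod, Il1b, Insr, Itgae, Klf2, Klf4, Lep, Mmp9, Pdgfra, Plin1, Pnpla2, Pparg, Ppm1k, Ptpn1, Slc2a4, Srxn1, Timp3 and Zbtb46 were named after their values were seen. Genes known only by a clone name were counted, 119 among those called without overlap, and left unnamed. The scripts were tested on simulated data. Same-numbered ND and HFD arrays correlated at 0.0978, -0.0461 and 0.00107 in their deviations from the group means. Only ND replicate 1 correlated best with the HFD array of its own number. With 3 arrays per diet these values cannot settle whether the numbers pair the arrays, and the main fit did not pair them. No 2 arrays were identical. Alternatives were uncorrected background, median scaling or cyclic loess, the authors' values, other detection filters, the probe with the largest interquartile range, trend and robust moderation, a fit to only the 6 arrays compared, a replicate block, and leaving out every array once.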

Additional observations from a re-analysis of the deposited data

How the results depend on the processing

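The count of called genes, 4653, ranged from 3882 with only the 6 ND and HFD arrays to 5033 with the authors' log2 values, and from 3629 (without HFD replicate 2) to 4505 with 1 array left out. The genes called higher ranged from 1769 to 2178 and those called lower from 1860 to 2327 with 1 array left out. Under the replicate block the calls numbered 4365, of which 2074 were higher and 2291 lower. Of the 4653 calls, 4259 were kept under the block. Cyclic loess moved the share of calls that were higher from 47.4% to 55.4%. Past 2-fold, 559 genes became 265 without background correction, 280 with the authors' values and 364 where detection at p under 0.01 on all 9 arrays was required, and 521 to 626 with 1 array left out. Low signals are compressed when background is left in, so folds of dim genes rest on that step. Elane, Gata2, Ebf1 and Prf1 were not followed gene by gene across the alternatives. Of the named genes that were followed, 8 lost their call under at least 1 alternative (Cd8b1, Cox7a1, Ctsf, Il1b, Lipe, Pparg, Prm1 and Slc2a4). Among them 1 turned sign, Pparg, at 0.1001 with the probe of the largest interquartile range. Beyond the losses given beside them, Slc2a4 had an adjusted p of 0.0579 with cyclic loess and 0.0507 without the detection filter, Cox7a1 0.0593 without that filter, and Il1b 0.057 with only the 6 arrays. Another 10 gained a call under at least 1 alternative (Adipoq, Cdkn1a, Clock, Col15a1, Fasn, Gbp2, Hba-a1, Nkg7, Sqle and Thy1). Counts of 3 or fewer genes in a list often moved by over 1.5 times. The larger counts that did so are given beside their lists, except rises of adipokine genes (3, 5 with the authors' values) and of lipogenic genes (2, 4 under 5 settings that kept all arrays). Signals near the top of the scale (39 genes within 0.5 of 16.06) and genes undetected on a diet (183 on the ND, 87 on the HFD) have bounded differences. Of 2350 other probes of called genes, 2159 went the same way and 24 were called the opposite way, with the adjustment run over all kept probes.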

Other observations

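Of the 10240 genes, 183 were undetected on all 3 ND arrays, of which 145 were called higher on the HFD. Another 87 were undetected on all 3 HFD arrays, of which 51 were called lower. The filter kept a gene only if its probe was detected on all 3 arrays of some diet. Genes undetected on the ND were therefore kept for their signal on the HFD or LU arrays, and those undetected on the HFD for their signal on the ND or LU arrays. The direction of these calls was largely fixed by that filter. Among the 4275 detected probes without a single gene name, 1092 passed an adjusted p of 0.05 in limma's moderated test, 432 of them higher and 660 lower on the HFD. That is a smaller share than the 45.4% of all genes. Here the adjustment ran over all 19549 kept probes, not over the 10240 genes, so the shares rest on different sets of tests. The median SD over the arrays of a diet was 0.122 for ND, 0.0883 for HFD and 0.0710 for LU on the log2 scale, against a median absolute difference between HFD and ND of 0.221.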
